A study of Rattus norvegicus with 10 samples.

Results

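Neurotrophin transcripts were followed in the left hippocampus of transgenic rats as 6 genes, taken by symbol from the 17168 genes of the deposited tables: the ligands Bdnf and Ntf3, the receptor kinases Ntrk2 and Ntrk3, and the co-receptors Ngfr and Sort1. All 6 passed the filter on low counts. The 10 libraries came from 10 male TgF344-AD rats, a line that carries mutant human amyloid precursor protein and presenilin transgenes, killed at 11 months of age. The untreated group of 5 ate plain rodent chow, and the RG2833 group of 5 ate chow with 750 mg per kg of RG2833, a drug that inhibits histone deacetylases HDAC1 and HDAC3, from 5 months of age for 6 months. Every rat carried the transgenes, so the comparison is of the drug within the model and holds no wild-type rat. The dose each rat ate is not in the labels used here. Each library is 1 rat, with 15118203 to 18533520 expected counts in all, the estimated read counts per gene of the program RSEM.

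Neurotrophins are secreted growth factors that keep neurons alive and tune synapses. Each is made as a precursor that is cut to the mature factor. The mature factors bind Trk receptor kinases, which signal through the MAP kinase, PI3 kinase and phospholipase C pathways, whereas the precursors bind the p75 receptor together with sortilin. In the adult hippocampus Bdnf is made mainly by granule and pyramidal neurons and is transcribed in response to synaptic activity, while its receptor Ntrk2 (TrkB) is made by neurons in a full-length form and by astrocytes mostly in a truncated form without the kinase.

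None of the 6 genes differed between RG2833 and untreated rats beyond the spread between animals. With edgeR's quasi-likelihood test over 12161 genes, 0 of the 6 had an adjusted p under 0.05, against 0 of all genes tested (0%). At an unadjusted p under 0.05 the count was also 0 of 6, where 688 of all genes tested (5.66%) lay. DESeq2 and limma also called 0 of the 6 at an adjusted p under 0.05; over all genes DESeq2 called 7. The 6 genes split into 3 with a higher and 3 with a lower fitted value under RG2833, with a median log2 fold change of 0.02 beside -0.01 over all genes, of which 53.5% were lower. In none of the 6 did the groups separate without overlap, as 1.00% of all genes did. The values were instead ordered by animal. Untreated replicate 3 and RG2833 replicates 4 and 5 held the 3 lowest levels of Bdnf, Ntf3 and Sort1 and the 3 highest levels of Ntrk2.

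**Figure D1:**
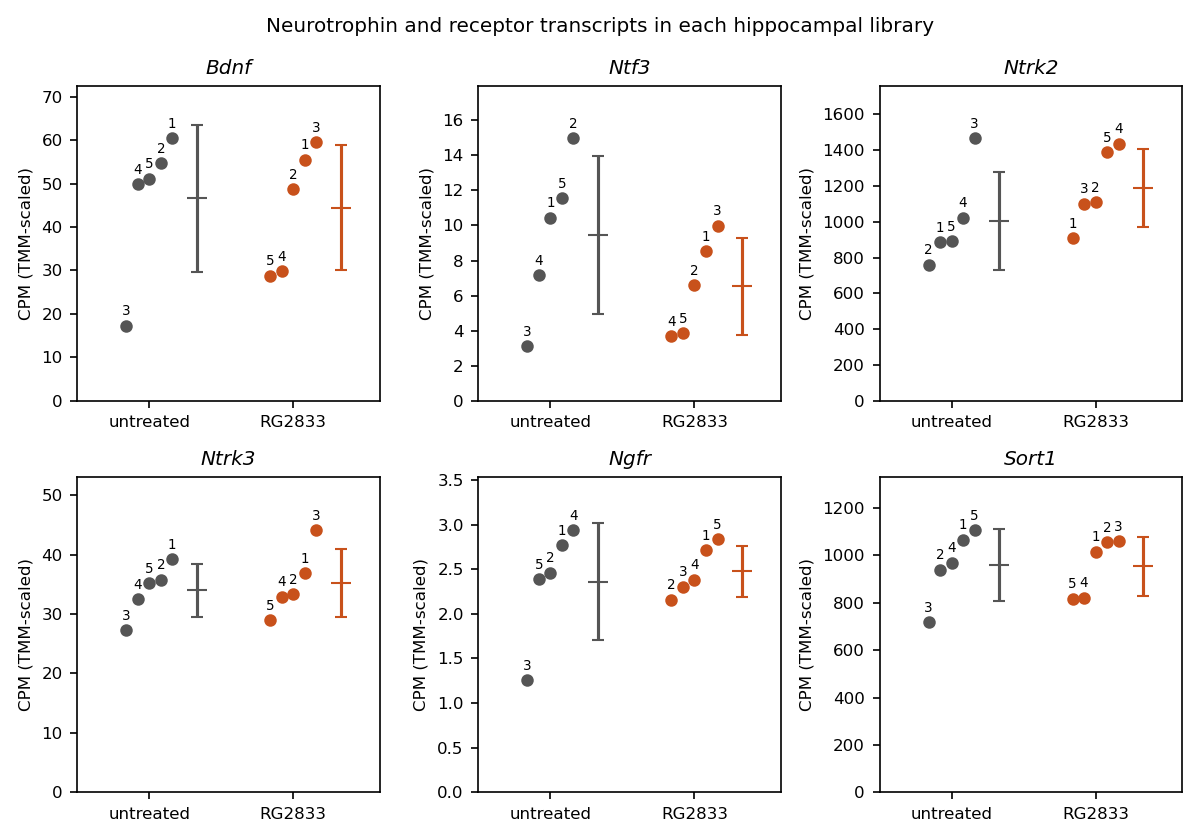
Each panel plots 1 gene in read counts scaled to a fixed library size (CPM, on the TMM-scaled library), with axes from 0, with 1 point per rat numbered by replicate, and the bar gives the group mean and SD (n = 5 each). Untreated rat 3 and RG2833 rats 4 and 5 sit lowest for Bdnf, Ntf3 and Sort1 and highest for Ntrk2, and the groups overlap in every panel.

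Bdnf, brain-derived neurotrophic factor, is the main neurotrophin of the adult hippocampus. In untreated replicates 1 to 5 it stood at 60.4, 54.7, 17.3, 49.8 and 51.1 CPM, that is, read counts scaled to a common library size (CPM) after TMM scaling of the libraries. In RG2833 replicates 1 to 5 it stood at 55.4, 48.7, 59.5, 29.8 and 28.8 CPM. Untreated replicate 3 and RG2833 replicates 4 and 5 were low, the other 7 rats lay between 48.7 and 60.4 CPM, and the groups overlapped. The mean level was 46.6 ± 16.9 CPM without and 44.5 ± 14.4 CPM with the drug (SD, n = 5 each). The log2 fold change was -0.07 (SE 0.32; edgeR adjusted p = 0.994; two-sided exact permutation p = 0.865, n = 5 each). Its 95% interval ran from 0.585-fold to 1.55-fold. Without untreated replicate 3 the log2 fold change was -0.28 (edgeR adjusted p = 0.560), and its sign turned without untreated replicate 1 (0.04) and without RG2833 replicate 4 or 5 (0.05 and 0.06). Bdnf had from 290 to 1067 expected counts in a library. The spread of its log2 CPM within groups ranked at the 94.3 percentile of the genes tested.

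The deposited count for Bdnf sums transcripts from several start sites: RefSeq lists 11 transcripts for the gene in the GRCr8 assembly, and reads of single 5' exons cannot be told apart in a gene total. Promoter windows were available for 3 members, Bdnf, Ntf3 and Sort1, and not for Ntrk2, Ntrk3 or Ngfr. A window of each of the 3 is shown. Each is the 250 bases before a transcript start, 5' to 3' on the gene's own strand, from RefSeq on GRCr8. The study's notes name rn6, so these coordinates belong to the sequence and not to the counts. Capitals mark a match to any of the motifs searched.
Bdnf window 4, chr3:116637608-116637857, plus strand: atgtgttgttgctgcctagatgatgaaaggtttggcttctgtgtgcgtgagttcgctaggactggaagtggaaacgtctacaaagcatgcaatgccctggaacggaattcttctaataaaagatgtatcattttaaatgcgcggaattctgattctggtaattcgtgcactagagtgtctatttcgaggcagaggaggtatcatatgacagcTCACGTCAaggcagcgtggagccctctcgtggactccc
Ntf3 window 1, chr4:160670624-160670873, minus strand: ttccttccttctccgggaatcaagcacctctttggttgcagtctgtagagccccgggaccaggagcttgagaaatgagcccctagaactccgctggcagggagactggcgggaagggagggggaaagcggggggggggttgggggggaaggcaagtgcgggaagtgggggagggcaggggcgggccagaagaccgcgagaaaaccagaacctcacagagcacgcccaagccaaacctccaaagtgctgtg
Sort1 window 1, chr2:198612245-198612494, plus strand: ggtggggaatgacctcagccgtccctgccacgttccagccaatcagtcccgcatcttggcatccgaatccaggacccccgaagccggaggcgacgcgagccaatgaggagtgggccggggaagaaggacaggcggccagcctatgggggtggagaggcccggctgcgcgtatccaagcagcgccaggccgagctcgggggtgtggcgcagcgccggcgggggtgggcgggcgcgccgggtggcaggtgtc

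The promoter table held 6 windows for Bdnf, 3 for Ntf3 and 1 for Sort1, of which Bdnf windows 5 and 6 overlap, as do Ntf3 windows 1 and 2. Searched for on both strands were the cAMP response element TGACGTCA, its variant TCACGTCA, the core TGACG, the E-box CACGTG and the AP-1 site TGACTCA. In Bdnf window 4, the variant TCACGTCA lay at bases -38 to -31, counted back from the transcript start. It overlaps the core, read there as CGTCA at bases -35 to -31. This element is known as a binding site of CREB and related factors in the activity-responsive promoter of the gene. Among 33469 windows of the same length, 0.35% held TCACGTCA, 1.59% held TGACGTCA, 18.2% the core, 5.59% the E-box and 4.05% the AP-1 site. The other 9 windows of the 3 genes held none of these letters. A match describes the sequence and was not tied to the counts.

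Ntf3, neurotrophin 3, is the ligand of Ntrk3 and in the adult hippocampus is made mainly by dentate granule cells. It stood at 10.4, 14.96, 3.10, 7.16 and 11.6 CPM in untreated replicates 1 to 5. In RG2833 replicates 1 to 5 it stood at 8.52, 6.59, 9.98, 3.70 and 3.87 CPM. The same 3 rats were lowest as for Bdnf, all under 4 CPM, and the highest value was in untreated replicate 2. The mean was 9.45 ± 4.51 CPM without and 6.53 ± 2.78 CPM with the drug (SD, n = 5 each), and 1 of the 5 RG2833 values lay above the untreated mean. At -0.53 (SE 0.40), its log2 fold change was the largest in size among the 6 genes and did not pass (edgeR adjusted p = 0.901; exact permutation p = 0.262, n = 5 each). Its 95% interval ran from 0.374-fold to 1.28-fold. It ranged from -0.75 without untreated replicate 3, where the unadjusted edgeR p was 0.0398 and the adjusted p 0.337, to -0.31 without untreated replicate 2. The spread of Ntf3 within groups ranked at the 96.5 percentile of the genes tested, at 52 to 292 expected counts in a library.

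Ntrk2 encodes TrkB, the receptor kinase of Bdnf. Its levels ran the other way. Untreated replicates 1 to 5 stood at 886, 759, 1465, 1021 and 889.7 CPM. RG2833 replicates 1 to 5 stood at 909, 1107, 1102, 1436 and 1387 CPM. The 3 highest values were those of untreated replicate 3 and RG2833 replicates 4 and 5, the rats with the least Bdnf. Means were 1004 ± 274 CPM without and 1188 ± 219.6 CPM with the drug (SD, n = 5 each), with 4 of the 5 RG2833 values above the untreated mean. The log2 fold change was 0.24 (SE 0.19; 95% interval 0.890-fold to 1.57-fold), which did not pass (edgeR adjusted p = 0.903; exact permutation p = 0.230, n = 5 each). Without untreated replicate 3 it was 0.42, with an unadjusted edgeR p of 0.0154 and an adjusted p of 0.311. RefSeq lists 14 Ntrk2 transcripts. The gene total does not separate the full-length receptor from the truncated form, so it says nothing of the share able to signal.

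The ratio of Bdnf to Ntrk2 within a library does not depend on how the library is scaled. On the log2 scale it was -3.87, -3.79, -6.39, -4.35 and -4.12 in untreated replicates 1 to 5. In RG2833 replicates 1 to 5 it was -4.03, -4.50, -4.21, -5.58 and -5.59. These are ratios of read counts with no correction for transcript length, so only their differences between rats carry meaning. The group difference was -0.28, from -4.51 ± 1.08 to -4.78 ± 0.75 (SD, n = 5 each), and did not pass (two-sided exact permutation p = 0.714, also 0.714 adjusted over the 2 ratios tested). The ratio of Ntf3 to Ntrk3 differed by -0.51, from -1.999 ± 0.70 to -2.51 ± 0.46 (exact permutation p = 0.214, adjusted p = 0.429, n = 5 each). Without untreated replicate 3 the differences were -0.75 and -0.78 (adjusted exact permutation p = 0.119 and 0.0952, 4 against 5 rats).

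Ntrk3 encodes TrkC, the receptor kinase of neurotrophin 3. The spread of its log2 CPM within groups ranked at the 56.4 percentile of the genes tested. It stood at 39.2, 35.8, 27.3, 32.4 and 35.2 CPM in untreated replicates 1 to 5. The RG2833 values in the same order were 36.9, 33.3, 44.1, 32.9 and 29.0 CPM. Untreated replicate 3 was again lowest and RG2833 replicate 3 highest, a 1.62-fold range over all 10 rats. The log2 fold change was 0.05 (SE 0.12; edgeR adjusted p = 0.977; exact permutation p = 0.730, n = 5 each), with a 95% interval of 0.858-fold to 1.25-fold. Leaving out untreated replicate 3 turned it to -0.02, and leaving out RG2833 replicate 3 turned it to -0.04.

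Ngfr encodes p75, the receptor that all neurotrophins and their precursors share. It had few reads, with 21.4 to 48.2 expected counts in a library. The deposited counts of Ngfr and Ntrk2 carry a decimal part in every library. RSEM gives such values where it divides reads among genes, so the level is uncertain to that extent. Values were 2.77, 2.46, 1.25, 2.94 and 2.39 CPM in untreated replicates 1 to 5. RG2833 replicates 1 to 5 stood at 2.71, 2.16, 2.30, 2.38 and 2.84 CPM. Only untreated replicate 3 stood low, and RG2833 replicates 4 and 5, which were low for Bdnf and Ntf3, were within the range of the other rats for Ngfr. Between treatments its log2 fold change was 0.07 (SE 0.22; edgeR adjusted p = 0.982; exact permutation p = 0.833, n = 5 each), and -0.09 without untreated replicate 3. In the adult forebrain p75 is known chiefly from basal forebrain cholinergic neurons, whose cell bodies lie outside the hippocampus. Their 3 marker genes here, Chat, Slc18a3 and Slc5a7, summed to between 2.66 and 7.82 CPM without the drug and between 2.84 and 4.57 CPM with it.

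Sort1 encodes sortilin, which binds the neurotrophin precursors with p75 and also sorts pro-BDNF into secretory vesicles. It stood at 1066, 939, 717, 969 and 1107 CPM in untreated replicates 1 to 5. In RG2833 replicates 1 to 5 it stood at 1016, 1055, 1061, 821 and 817 CPM. The 3 rats low in Bdnf were again the lowest, with a narrower range of 1.54-fold between the extremes than the 3.49-fold of Bdnf and the 4.82-fold of Ntf3. Group means were 959.6 ± 152 and 954 ± 124 CPM (SD, n = 5 each). This is a log2 fold change of -0.0084 (SE 0.13; edgeR adjusted p = 0.996; exact permutation p = 0.960, n = 5 each). Its 95% interval ran from 0.813-fold to 1.22-fold.

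**Figure D2:**
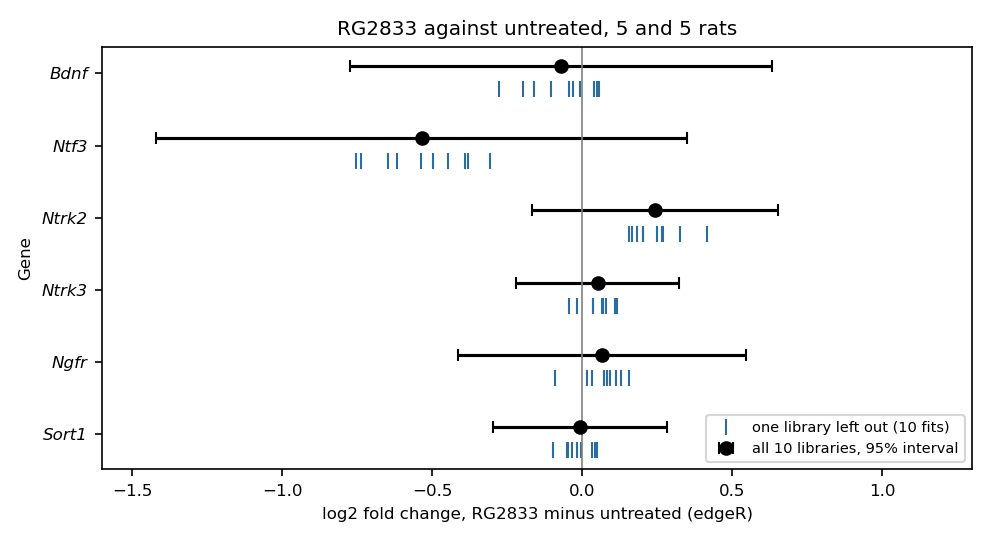
The horizontal axis is the log2 fold change of RG2833 minus untreated for each of the 6 genes, with the fit to all 10 libraries as a black point and its 95% interval, and the 10 fits that each left out 1 library as blue ticks. All 6 intervals include 0. Ntf3 lies at -0.53 and Ntrk2 at 0.24, and the ticks of Bdnf, Ntrk3, Ngfr and Sort1 fall on both sides of 0.

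Other genes of the family were read from lists fixed with earlier results of these data known. Sorl1, a sortilin relative that also carries Alzheimer's disease risk, was lowest in the same 3 rats, at 199, 282 and 286 CPM against 384 to 474 CPM elsewhere. Sorcs1 and Sorcs2, other sortilin relatives, were not low there. Sorcs1 was at 33.5, 32.4 and 34.0 CPM in those rats and at 20.6 to 33.2 CPM in the other 7. Sorcs2 was at 117, 119.7 and 113 CPM in those rats and at 68.0 to 99.1 CPM in the other 7. Ntf4 had 1 to 21 counts and was not tested.

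Several lists of cell type markers also stood highest or lowest in those 3 rats, while others did not. The CA3 pyramidal list, as the mean log2 CPM of its 5 tested genes less its mean over the 10 libraries, stood at -1.10, -0.31 and -0.80 in untreated replicate 3 and RG2833 replicates 4 and 5, and from 0.15 to 0.48 in the other 7. The dentate granule list of 6 tested genes stood at -0.85 in untreated replicate 3, and at -0.05 and 0.03 in RG2833 replicates 4 and 5, within the range of the other rats (-0.13 to 0.33). Its defining gene Prox1 was at 4.3 CPM in untreated replicate 3, at 21.5 and 23.2 CPM in RG2833 replicates 4 and 5, and from 26.9 to 50.5 CPM elsewhere. The list did not move as 1: Calb1 was highest in untreated replicate 3, at 90.6 CPM, where C1ql2 was lowest, at 7.1 CPM against 38.2 to 142 CPM in the others. The astrocyte list stood at 0.22, 0.43 and 0.42 in the 3 rats and from -0.38 to 0.14 in the others. Microglia (0.64, 0.23 and 0.27, against -0.31 to 0.04) and endothelium (0.54, 0.31 and 0.58, against -0.48 to -0.01) were also highest there, as were oligodendrocyte precursors (0.58, 0.38 and 0.38, against -0.28 to -0.05). The list of 7 neocortex markers, genes of a region next to the hippocampus, was highest in the same rats too, at 0.13, 0.33 and 0.47 against -0.34 to 0.01. Its genes did not move together. Cux2, a transcription factor, stood at 141, 92.4 and 106 CPM in the 3 rats and from 28.3 to 59.9 CPM in the others, and Rorb was also highest there. The other 5 genes did not have all 3 of their highest values in those rats. Fezf2 and Rspo1 were highest in RG2833 replicate 5 and next highest in RG2833 replicate 4. Tbr1 was highest in RG2833 replicate 5 and next highest in untreated replicate 3. Lamp5 and Tle4 were highest in other rats, and Fezf2 and Tle4 were lowest in untreated replicate 3. Immediate early genes, like Bdnf, are induced by activity. As a list they were not low, at 0.40, 0.09 and 0.19 against -0.48 to 0.37. They did not all move together. Jun and Fosl2 were lowest in untreated replicate 3, at 135 and 6.86 CPM, where Fos, Fosb, Egr1, Egr2, Ier2 and Dusp1 were highest. The CA1 list (-0.35, -0.08 and 0.21, against -0.34 to 0.49) and the interneuron list (0.24, 0.15 and 0.02, against -0.50 to 0.21) did not set the 3 rats apart. Neither did the other 5 lists, of oligodendrocytes, mural and leptomeningeal cells, choroid plexus, cholinergic neurons and thalamus.

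These lists give their levels beside the neurotrophin genes, and their part in the order of the rats was not tested. In bulk tissue, fewer cells of a type and less RNA per cell cannot be told apart. Summed levels of the CA3 list ran from 207 to 659 CPM without and from 276 to 602 CPM with the drug. Those of the dentate list ran from 223 to 371 and from 240.5 to 335 CPM. Those of the astrocyte list ran from 5397 to 7860 and from 6086 to 8704 CPM, and those of the neocortex list from 240.1 to 344 and from 253 to 370.4 CPM. Of the 7 CA3, 7 dentate, 9 astrocyte and 7 neocortex genes in the table, 0 were at 0 in all libraries. All 9 tested astrocyte genes had a positive log2 fold change under RG2833 (median 0.33), 2 of them at an unadjusted p under 0.05 and 0 at an adjusted p under 0.05. Over all genes tested, 53.5% had a negative log2 fold change and 5.66% an unadjusted p under 0.05. The 5 tested CA3 genes all had a negative one (median -0.11), with 0 at either threshold. With the dentate list as a covariate, an alternative chosen after the data were seen, the log2 fold change was -0.20 for Bdnf, -0.69 for Ntf3 and 0.39 for Ntrk2, and none passed (edgeR adjusted p = 0.644, 0.253 and 0.242). Defining markers of hippocampal neurons were present in all libraries. Prox1 was at 4.3 CPM or more and the CA1 list at 499 to 1166 CPM in sum. The CA1 genes did not move together in untreated replicate 3. Fibcd1 was lowest there, at 35.5 CPM against 82.3 to 303 CPM elsewhere. So was Pou3f1, at 19.6 against 36.8 to 127 CPM. Of that library's CA1 sum of 698 CPM, Wfs1 and Mpped1 held 298 and 285 CPM. Untreated replicate 2 and RG2833 replicate 1 held choroid plexus RNA (Ttr at 6929 and 8189.95 CPM, against 3.11 to 236 CPM), and without both the 6 genes gave 0 calls, with Ntf3 at -0.43 and Ntrk2 at 0.23.

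**Figure D3:**
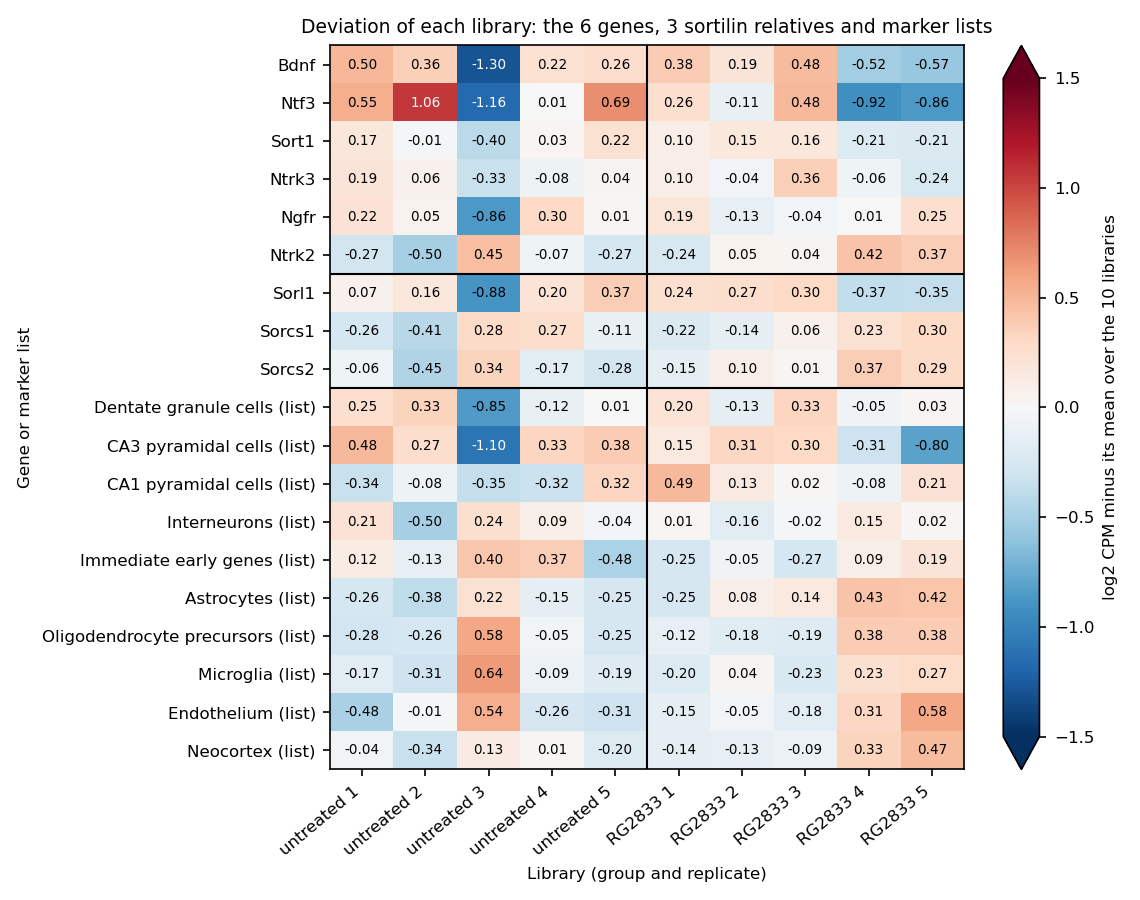
Rows are the 6 genes, 3 sortilin relatives and 10 marker lists; columns are the 10 libraries; color and printed value give log2 CPM less its mean over the 10 libraries (for a list, the mean over its tested genes), with color capped at 1.5 either way. Untreated 3, RG2833 4 and RG2833 5 are below 0 for Bdnf, Ntf3, Sort1, Ntrk3, Sorl1 and the CA3 list. They are above 0 for Ntrk2, Sorcs1, Sorcs2, interneurons, immediate early genes, astrocytes, oligodendrocyte precursors, microglia, endothelium and neocortex.

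Genes whose levels followed each member most closely were found among the tested genes with a mean of at least 5 CPM and a symbol (9771 for 5 of the members, 9772 for Ngfr), by Pearson's r of log2 CPM over the 10 libraries. They were picked for a high r, so no test is given. The libraries fall into sets of 3 and 7 on Bdnf, so r over those other 7 is given beside it. Bdnf was followed by Hspa4, a chaperone (r = 0.993; 0.848 over 7) and by Adcy9, an adenylyl cyclase (0.991; 0.859). Ntf3 was followed by Cap1, an actin regulator (0.985; 0.957), by Ampd2, an AMP deaminase (0.982; 0.941), and by Napa, which helps to recycle SNARE complexes (0.981; 0.918). For Ntrk2 the nearest were Glud1, glutamate dehydrogenase (0.995; 0.984), Mtss1l (0.989; 0.973) and Adhfe1 (0.989; 0.986).

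Sort1 was followed by Nckap1, a subunit of the WAVE actin complex (r = 0.992; 0.937 over 7), Chrm3, a muscarinic receptor (0.992; 0.956), and Arl8b, a lysosomal GTPase (0.987; 0.896). Ntrk3 was followed by Plxna2, a semaphorin receptor (0.960; 0.903), Acvr1, a BMP receptor (0.949; 0.883), and Lzts3 (0.947; 0.929). Ngfr was followed by Asb7 (0.964; 0.801), Tefm, a mitochondrial transcription factor (0.964; 0.882), and Dpy19l1 (0.920; 0.770).

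The rest of the pathway gave no call either. Of 85 tested genes in 6 lists, 0 had an adjusted p under 0.05 and 1 had an unadjusted p under 0.05, or 1.18% beside 5.66% of all genes. This was Cpe, carboxypeptidase E, which sorts pro-BDNF into the regulated secretory pathway. It stood at 2888, 2399, 2992, 2876 and 2826 CPM in untreated replicates 1 to 5. RG2833 replicates 1 to 5 stood at 2821, 3513, 3157, 3543 and 3249 CPM, so 4 of the 5 treated rats lay above every untreated one. The log2 fold change was 0.22 (SE 0.09; unadjusted p = 0.0414, edgeR adjusted p = 0.841; exact permutation p = 0.0397 before any adjustment, n = 5 each), and it does not pass.

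In the list of precursor processing and sorting, 2 of 11 tested genes were higher and 9 lower (median -0.05). Of 6 other family genes tested, 4 were higher and 2 lower (median 0.04). The smallest p there was that of Sorcs3, a further sortilin relative, with a log2 fold change of 0.28 and SE of 0.14 (edgeR adjusted p = 0.841). Adaptors and partners of the Trk receptors had 9 of 16 higher (median 0.03), with the smallest p for Ptpn11, the phosphatase SHP2 (log2 fold change 0.27, SE 0.14). Partners of p75 had 6 of 16 higher (median -0.04), with the smallest p for Ngfrap1, also called Bex3, an interactor of the p75 cytoplasmic tail (-0.16, SE 0.08). Among the downstream kinases 11 of 22 were higher (median -0.0016), led by Akt1, a kinase of the survival pathway (0.22, SE 0.10). Of the 14 regulators of Bdnf transcription, 6 were higher (median -0.02), and the smallest p was that of Camk4, a calcium-dependent kinase of CREB (-0.30, SE 0.16). The edgeR adjusted p was 0.841 for each of Ptpn11, Ngfrap1, Akt1 and Camk4.

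**Figure D4:**
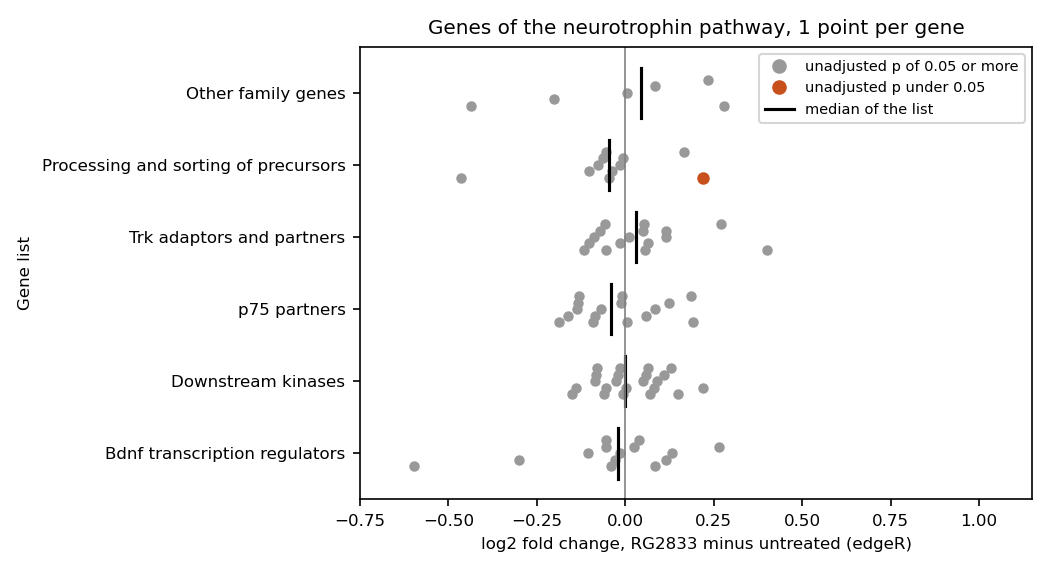
Each point is 1 tested gene of 6 lists of the neurotrophin pathway, placed by its log2 fold change of RG2833 minus untreated, and the black line is the list's median. The medians lie between -0.05 and 0.04, and 1 gene, Cpe at 0.22, has an unadjusted p under 0.05.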

How the data were processed

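RNA from the left hippocampus of 10 male rats was sequenced as stranded mRNA libraries, per the labels' protocols. The submitters' processing notes name bcl2fastq 2.17, Bowtie2 2.1.0, RSEM 1.2.15, edgeR and the build rn6; the annotation and any filter are not given in the sources used here. The deposited values are RSEM expected counts per gene, made by the authors, with totals of 15118203 to 18533520 per library. A second deposited table holds the authors' TMM-scaled CPM signal. In each library 100% of its values above 0 were whole multiples of 1 step (tolerance 0.05 of a read), and at least 99.9% of the reads recovered equalled the rounded expected counts. The edgeR test on those reads called 0 genes. The design text once calls the drug ibudilast; the labels' treatment, RG2833, was followed.

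Expected counts were rounded, filtered by filterByExpr (minimum count 10, total 15; 12161 genes kept) and scaled by TMM in edgeR 4.0.16 (R 4.3.3). Treatments were compared by the quasi-likelihood test with robust dispersions and Benjamini-Hochberg adjustment over all genes tested (threshold 0.05). CPM were taken on TMM-scaled library sizes, with a prior count of 2 before taking log2. Single values were compared by two-sided exact permutation over 252 regroupings, whose smallest p is 0.00794. Each library is 1 rat per its label; nothing says whether rats shared litters or cages.

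The 6 genes and all lists were chosen with earlier results of these data known. Named genes were the 6 members, the 3 tested genes most like each, and pathway genes with an unadjusted p under 0.05 or the smallest p of their list; other names were added after their values were seen, and results for some genes are not reported here. Of 92 pathway and 109 marker entries, 89 and 106 matched the table, by symbol or RefSeq synonym (GRCr8). Fits were tested on simulated counts. Alternatives used limma 3.58.1, DESeq2 1.42.0 and sva 3.50.0.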

Additional observations from a re-analysis of the deposited data

Results flagged for a closer look

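Within each group of 5 rats, the highest and lowest values were taken up where they lay apart from the next value by more than 0.71 of the whole range. Of 16 such sets of values (6 genes and 2 ratios in 2 groups), 2 did so, where chance gives 0.8. Bdnf in untreated replicate 3, at 17.3 CPM where the rest of its group ran from 49.8 to 60.4 CPM, had a gap of 0.756 of the range. The log2 ratio of Bdnf to Ntrk2 in the same library, -6.39 against -4.35 to -3.79, had a gap of 0.784. The ratio contains the Bdnf value, so the pair is not independent.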

How the results depend on the processing

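Over 23 alternative settings, 0 of the 6 neurotrophin genes passed an adjusted p of 0.05 in any fit, and 0 of the 156 values of single genes and ratios crossed the threshold. Of these values 140 kept their direction and 16 changed sign. Ntf3 stayed negative and Ntrk2 positive in all 22 settings run for them, with smallest adjusted p of 0.253 and 0.138. Signs changed with 2 surrogate variables for Bdnf (0.076) and Sort1 (0.014), in limma-voom with sample weights for Ngfr (-0.086), in limma-trend on the authors' CPM for Sort1 (0.0074), and with the dentate covariate, chosen after the data were seen, for Ntrk3 (-0.016) and Ngfr (-0.0076); the cause was not tested. With 1 library left out at a time, log2 fold changes ran from -0.28 to 0.056 for Bdnf, -0.75 to -0.31 for Ntf3, 0.16 to 0.42 for Ntrk2, -0.042 to 0.12 for Ntrk3, -0.092 to 0.16 for Ngfr and -0.096 to 0.050 for Sort1. The ratio differences ran from -0.75 to -0.08 for Bdnf to Ntrk2 and from -0.78 to -0.32 for Ntf3 to Ntrk3. The number of all genes called was 0 in edgeR, 7 in DESeq2 and 43 with 2 surrogate variables. At an unadjusted p under 0.05 it was 688, and ran from 375 without RG2833 replicate 4 to 1732 without untreated replicate 3, with 424 without RG2833 replicate 5, 401 with the replicate block, 1266 in limma-voom, 1735 with the dentate covariate and 1867 with 2 surrogate variables. Ntf3 and Ntrk2 were at an unadjusted p under 0.05 without untreated replicate 3, with 2 surrogate variables (0.0436 and 0.00513) and with the dentate covariate (0.0103 and 0.00692), and Ntrk2 in limma-voom (0.0423).

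No pairing of the rats by replicate number was seen. The correlation of deviations between same-numbered rats ran from -0.49 to -0.03, and 0 of 5 untreated rats correlated best with their own number. With 5 rats per group, these values cannot exclude a pairing. With the replicate block the log2 fold changes were -0.05 for Bdnf, -0.51 for Ntf3, 0.26 for Ntrk2, 0.05 for Ntrk3, 0.10 for Ngfr and -0.0033 for Sort1, and 0 genes were called.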
